A study of Homo sapiens with 8 samples.

Results

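The 9 genes described here encode the follistatins, the activin subunits and the activin receptors: *FST*, *FSTL1* and *FSTL3*, *INHBA* and *INHBB*, and *ACVR1*, *ACVR1B*, *ACVR2A* and *ACVR2B*. They were taken by symbol from 13842 genes, and all 9 were present. The set was selected on the high *FST* level in MCF10A cells carrying *MALINC1*, so the members' values in that contrast are a description without a test. The same holds for the *FST* level of MCF10A control cells wherever it enters a comparison.

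RNA-seq libraries came from MCF10A, an immortalized non-tumorigenic human breast epithelial line, and from DCIS.COM, a line related to MCF10A that forms lesions like ductal carcinoma in situ in mice. Each line was stably transduced with the lentiviral vector pLOC, either empty (pLOC-empty) or carrying the lncRNA *MALINC1* (pLOC-*MALINC1*), and selected with blasticidin, so the control cells also carry a vector. With 2 libraries in each of the 4 groups there were 8 in all. MCF10A medium held EGF, hydrocortisone, insulin and cholera toxin beside horse serum, whereas DCIS.COM medium held horse serum only, so line and medium cannot be told apart. The labels do not say whether the replicates were separate cultures, so p-values measure the spread between these libraries, which may be technical.

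Activins are dimers of inhibin beta subunits. *INHBA* encodes the subunit of activin A and *INHBB* that of activin B. An activin dimer binds a type II receptor (ACVR2A or ACVR2B), which recruits and phosphorylates a type I receptor such as ACVR1B, and SMAD2 and SMAD3 then carry the signal to the nucleus. ACVR1 is a type I receptor that signals through SMAD1 and SMAD5 in response to BMPs. Follistatin, the product of *FST*, wraps around the ligand and blocks its receptor contacts, and FSTL3 is a related binding protein. FSTL1 shares a follistatin domain with them but belongs to the SPARC family. In breast epithelium, TGFB and activin signaling is known for restraining proliferation.

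Promoter sequences are shown for *FST*, *FSTL3* and *INHBA* because *FST* is the gene whose level chose the set, *FSTL3* had the lowest log2 fold change of the members between the lines, and *INHBA* had the largest rise of the members with *MALINC1* in DCIS.COM. Each run holds the 250 bases before the annotated RefSeq start in GRCh38.p14, read 5′ to 3′ on the strand of the gene. The windows are chr5:53480379-53480628 on the plus strand for *FST*, chr19:676142-676391 on the plus strand for *FSTL3* and chr7:41703091-41703340 on the minus strand for *INHBA*. The windows were searched on both strands for TGANTCA, a loose form of the AP-1 motif in which N is any base. They were also searched for the TATA box, which reads TATAAA here, and for the short SMAD-binding element CAGAC. Capitals mark the matches.
FST: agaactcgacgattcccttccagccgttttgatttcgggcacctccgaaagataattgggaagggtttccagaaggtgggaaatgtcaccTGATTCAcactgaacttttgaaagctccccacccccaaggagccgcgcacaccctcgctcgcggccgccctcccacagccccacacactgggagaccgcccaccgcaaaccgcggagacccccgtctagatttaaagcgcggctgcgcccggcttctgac
FSTL3: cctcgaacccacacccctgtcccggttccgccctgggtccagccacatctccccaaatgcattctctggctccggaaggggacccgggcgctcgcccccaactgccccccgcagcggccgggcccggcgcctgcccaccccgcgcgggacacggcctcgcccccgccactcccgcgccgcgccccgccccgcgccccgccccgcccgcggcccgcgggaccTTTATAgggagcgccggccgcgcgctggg
INHBA: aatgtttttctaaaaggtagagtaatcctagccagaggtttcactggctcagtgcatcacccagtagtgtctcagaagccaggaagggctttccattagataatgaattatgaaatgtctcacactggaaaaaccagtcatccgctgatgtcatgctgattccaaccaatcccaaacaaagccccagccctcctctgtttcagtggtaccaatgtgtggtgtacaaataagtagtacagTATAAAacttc
The *FST* window held a match to the loose AP-1 form, with T at its centre, whose first base lies 160 bases before the start. The *FSTL3* window held a TATA match on the opposite strand at 29 bases, and the *INHBA* window a TATA match at 11 bases. No match overlapped another. Of 35116 promoters of this length, 6.57% held the loose AP-1 letters, 10.7% the TATA letters and 38.0% those of the SMAD-binding element. These matches are letters in a window and were not tested as binding sites.

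The libraries held 20604377 to 37550457 reads on genes, of which *RN7SL1* and *RN7SL2* took 8.22% to 15.7%. *MALINC1* had 29 and 34 reads in MCF10A pLOC-empty against 475 and 311 with pLOC-*MALINC1*, and 29 and 24 reads in DCIS.COM pLOC-empty against 840 and 648. Its level thus followed the label of every library. All 7 epithelial markers searched were detected: *KRT5*, *KRT14*, *KRT17*, *TP63* and *ITGA6*, and *CDH1* and *EPCAM*, which are not particular to basal cells. Their summed levels were 19349 to 19504 CPM (read counts scaled to library size) in MCF10A pLOC-empty and 26523 to 27175 with pLOC-*MALINC1*. In DCIS.COM they were 4373 to 4521 CPM with pLOC-empty and 4959 to 5233 with pLOC-*MALINC1*. This sum was higher with *MALINC1* in both lines and lower in DCIS.COM, but single markers went the other way: *TP63* (4.92 against 56.6 CPM), *ITGA6* (1142 against 1823 CPM) and *EPCAM* (62.2 against 280 CPM) were higher in DCIS.COM with the empty vector, and *KRT14*, *KRT17* and *TP63* were lower with *MALINC1* in DCIS.COM. The part of these markers in the results below was not tested. Among luminal markers, *ESR1*, *FOXA1* and *GATA3* summed to 17.0 to 48.8 CPM, and *PGR* was not among the 13842 genes. Of 3 endothelial and 3 leukocyte markers, *PECAM1* (0.0874 to 7.21 CPM) and *CD68* (3.53 to 11.4 CPM) were present. None of the 6 fibroblast markers was among the 13842 genes, so their levels are not known. In bulk RNA, fewer cells with a transcript and less transcript per cell cannot be told apart.

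*FST* was the member that differed most with *MALINC1* in MCF10A. It lies on chromosome 5 (GRCh37, 52776456 to 52782964, plus strand, 6 exons). MCF10A pLOC-empty libraries held 8 and 10 reads, or 0.276 and 0.443 CPM, and the pLOC-*MALINC1* libraries 989 and 674 reads, or 27.6 and 25.5 CPM. DCIS.COM libraries held 20.2 and 19.6 CPM with the empty vector and 14.1 and 15.9 CPM with *MALINC1*. Thus MCF10A pLOC-empty stood alone near the bottom of the range while the other 6 libraries lay close together, and no pair of groups overlapped. The means were 0.359 ± 0.118, 26.5 ± 1.48, 19.9 ± 0.406 and 15.0 ± 1.30 CPM (SD, n = 2 each). In MCF10A the log2 fold change was 5.97 (standard error 0.16), or 62.9-fold higher with *MALINC1*, and between the lines with the empty vector it was 5.56 (standard error 0.16), or 47.3-fold higher in DCIS.COM, both given without a test. At log2(CPM + 1) these differences were 4.34 and 3.95, since the size of a fold against so few reads depends on the pseudocount.

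In DCIS.COM, where *FST* was already high, it was lower with *MALINC1* in every library. The log2 fold change was -0.41, with a standard error of 0.16 shared by all 4 groups (0.082 with only the 2 DCIS.COM groups). This did not pass the adjusted p threshold of 0.01 (adjusted p = 0.0496 in limma). It passed with a pseudocount of 0.5 or 1 CPM (adjusted p = 0.00713 and 0.00288), and over all alternatives the adjusted p ran from 0.00288 to 0.253.

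**Figure D1:**
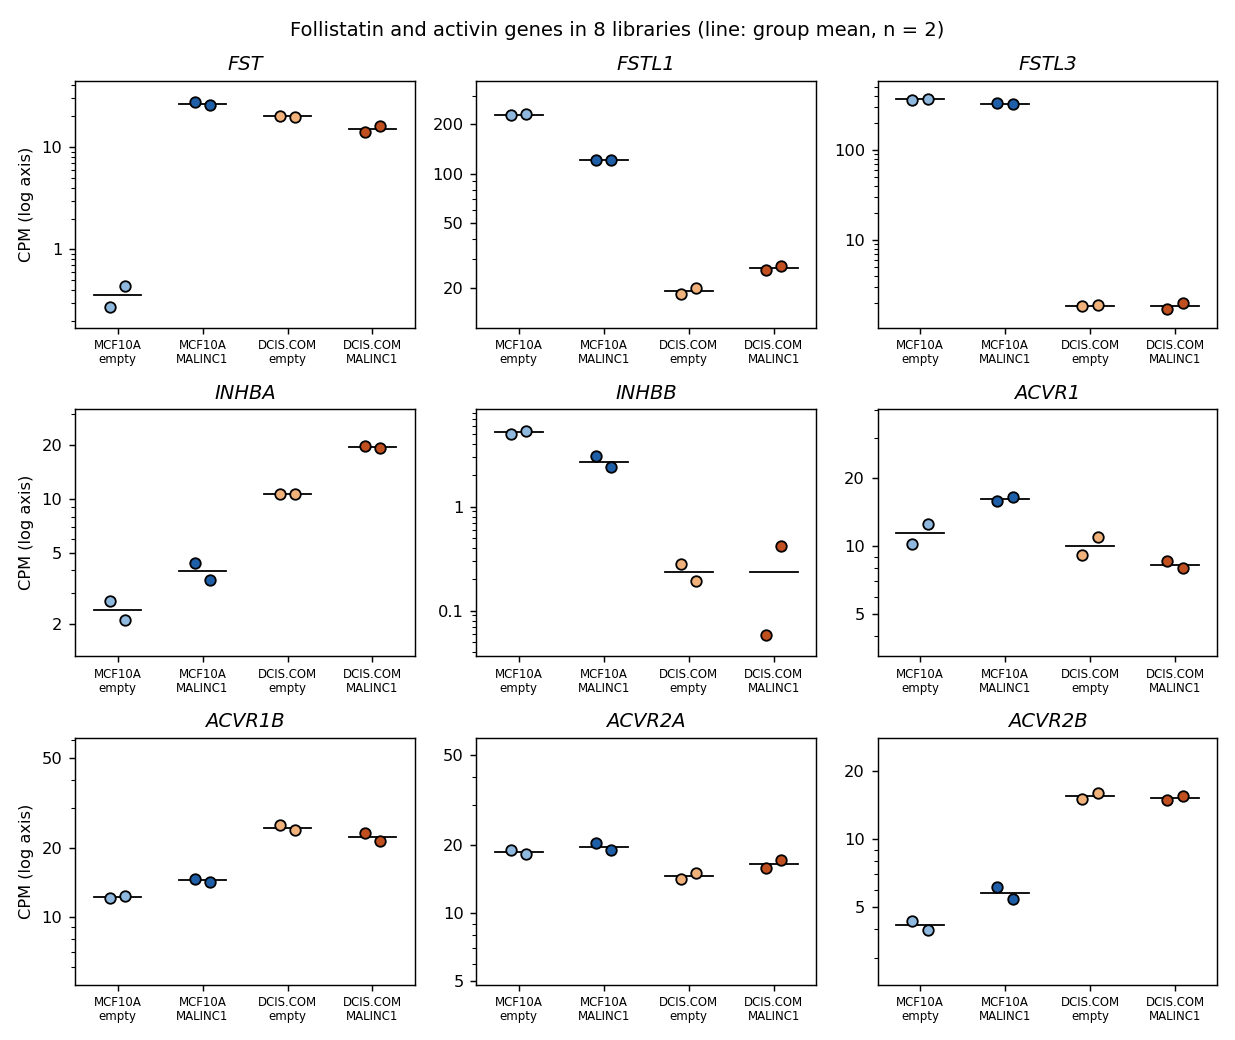
CPM of the 9 genes (log axes, each panel with its own range) in the 8 libraries, 2 points per group with the group mean as a line. *FST* was near 0.359 CPM in MCF10A pLOC-empty alone, *FSTL1*, *FSTL3* and *INHBB* were high in MCF10A, and *INHBA*, *ACVR1B* and *ACVR2B* were high in DCIS.COM.

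*FSTL3* and *FSTL1* ran the other way between the lines. *FSTL3* (chromosome 19, 676392 to 683392, plus strand) reached 365 and 366 CPM in MCF10A pLOC-empty and 330 and 323 CPM with *MALINC1*, but 1.87 and 1.91 CPM in DCIS.COM pLOC-empty and 1.72 and 2.04 CPM with *MALINC1*. The lines were wholly separate, and the DCIS.COM groups overlapped. With the empty vector *FSTL3* was 186-fold lower in DCIS.COM (log2 fold change -7.54, standard error 0.072, adjusted p = 3.98e-16). With *MALINC1* the log2 difference was -0.16 (standard error 0.072) for MCF10A, and for DCIS.COM it was -0.011 (standard error 0.072, adjusted p = 0.918), with a sign that changed under several alternatives.

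*FSTL1* (chromosome 3, 120111140 to 120169863, minus strand), which encodes a secreted glycoprotein, held 227 and 230 CPM in MCF10A pLOC-empty, 121 and 122 CPM with *MALINC1*, 18.4 and 20.1 CPM in DCIS.COM pLOC-empty and 25.7 and 27.4 CPM with *MALINC1*. All 4 groups were apart from each other. *MALINC1* therefore went with opposite shifts: in MCF10A a log2 difference of -0.92 (standard error 0.050), described only, and in DCIS.COM a rise of 0.46 (standard error 0.050, adjusted p = 1.02e-05). The difference between these shifts was not tested. Between the lines *FSTL1* was 11.8-fold lower in DCIS.COM (log2 fold change -3.57, standard error 0.050, adjusted p = 1.04e-14).

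*INHBA*, the activin A subunit (chromosome 7, 41706766 to 41745432, minus strand), was the member that rose most with *MALINC1* in DCIS.COM. Levels were 2.69 and 2.13 CPM in MCF10A pLOC-empty, 4.40 and 3.55 CPM with *MALINC1*, 10.7 and 10.7 CPM in DCIS.COM pLOC-empty and 19.8 and 19.4 CPM with *MALINC1*. The groups formed an ascending series without overlap. In DCIS.COM the rise was 1.82-fold (log2 fold change 0.87, standard error 0.14, adjusted p = 0.000241), below the 2-fold needed to be called a differentially expressed gene (DEG). In MCF10A the log2 difference was 0.71 (standard error 0.14). With the empty vector *INHBA* was 4.38-fold higher in DCIS.COM (log2 fold change 2.13, standard error 0.14, adjusted p = 1.20e-08).

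*INHBB*, the activin B subunit (chromosome 2, 121103712 to 121109379, plus strand), was the reverse of *INHBA* between the lines. MCF10A libraries held 5.00 and 5.36 CPM with the empty vector and 3.04 and 2.38 CPM with *MALINC1*, a log2 difference of -0.93 (standard error 0.45). That standard error is shared by all 4 groups, and it was 0.16 with only the 2 MCF10A groups. DCIS.COM libraries held 6 and 4 reads with the empty vector and 2 and 14 reads with *MALINC1*, which is 0.235 ± 0.0628 and 0.236 ± 0.251 CPM (SD, n = 2 each). *INHBB* was 17.3-fold lower in DCIS.COM with the empty vector (log2 fold change -4.11, standard error 0.45, adjusted p = 2.53e-06), and *MALINC1* gave no detectable difference there at this depth (log2 fold change -0.28, standard error 0.45, adjusted p = 0.653). Either pLOC-*MALINC1* library moves that value by as much: it was -1.23 without pLOC-*MALINC1* replicate 2 (adjusted p = 0.00727) and 0.68 without pLOC-*MALINC1* replicate 1 (adjusted p = 0.0804).

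Because these genes act as antagonists and ligands of each other, their transcripts were also compared per length, as CPM per kb of the main annotated transcript. The sum of *FST* and *FSTL3* was 146 CPM per kb in MCF10A pLOC-empty, 142 with *MALINC1*, 9.41 in DCIS.COM pLOC-empty and 7.28 with *MALINC1*. *FST* made up 0.107% ± 0.0349, 8.11% ± 0.303, 92.0% ± 0.272 and 89.7% ± 0.320 of it (SD, n = 2 each). MCF10A transcripts of this kind were thus mostly *FSTL3* even at the raised *FST* level, and those of DCIS.COM mostly *FST*.

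On the ligand side, *INHBA* and *INHBB* summed to 2.01, 1.5, 1.84 and 3.32 CPM per kb in the same order. The *INHBA* share of this sum was 19.8% ± 3.40, 43.8% ± 0.503, 96.0% ± 1.01 and 97.8% ± 2.35 (SD, n = 2 each). With the empty vector, *INHBB* thus made up most ligand transcripts in MCF10A and *INHBA* most of those in DCIS.COM. The ratio of antagonist to ligand transcripts was 72.6 ± 0.315 in MCF10A pLOC-empty and 95.7 ± 13.8 with *MALINC1*, against 5.10 ± 0.0239 in DCIS.COM pLOC-empty and 2.20 ± 0.178 with *MALINC1*. It was higher with *MALINC1* in both MCF10A libraries and lower in both DCIS.COM libraries. These ratios describe transcripts, not proteins, and 2 against 2 libraries cannot go below an exact permutation p of 0.333 (two-sided).

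**Figure D2:**
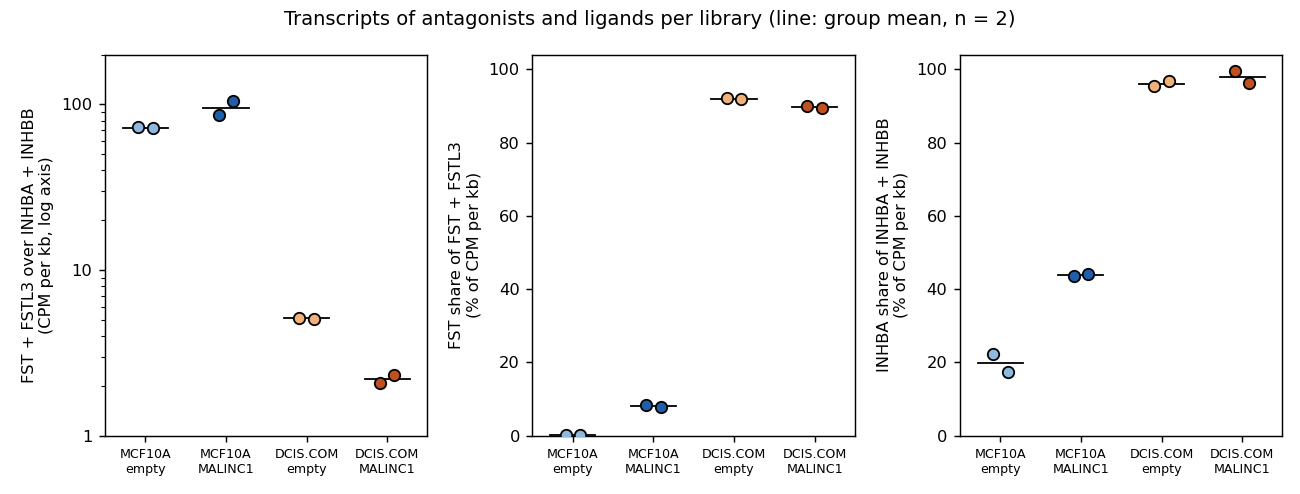
Ratio of *FST* plus *FSTL3* to *INHBA* plus *INHBB* transcripts (left, CPM per kb, log axis), share of *FST* among both antagonists (middle, %) and share of *INHBA* among both ligand subunits (right, %) in the 8 libraries, with group means as lines. MCF10A libraries had ratios of 72.4 to 105, and DCIS.COM libraries of 2.07 to 5.12.

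The *FST* to *INHBA* ratio in each library, as the difference of log2 CPM, was -2.99 and -2.10 in MCF10A pLOC-empty, 2.63 and 2.82 with *MALINC1*, 0.91 and 0.87 in DCIS.COM pLOC-empty and -0.49 and -0.28 with *MALINC1*. The mean differed by 5.27 with *MALINC1* in MCF10A and by -1.28 in DCIS.COM. In MCF10A the shift came mostly from *FST*, and in DCIS.COM from a higher *INHBA* beside a lower *FST*.

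The receptors differed by at most 1.88 on the log2 scale between the lines, against at least 2.13 for each ligand and antagonist. *ACVR1*, the BMP type I receptor (chromosome 2, 158592763 to 158732842, minus strand), held 10.2 and 12.6 CPM in MCF10A pLOC-empty, 15.9 and 16.5 CPM with *MALINC1*, 9.19 and 10.9 CPM in DCIS.COM pLOC-empty and 8.62 and 7.98 CPM with *MALINC1*. The empty vector groups overlapped. The log2 difference with *MALINC1* was 0.51 (standard error 0.12) for MCF10A, for DCIS.COM -0.27 (standard error 0.12, adjusted p = 0.0735), and between the lines it was -0.18 (standard error 0.12, adjusted p = 0.176).

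*ACVR1B*, the activin type I receptor (chromosome 12, 52345483 to 52390862, plus strand), held 12.1 and 12.3 CPM in MCF10A pLOC-empty, 14.7 and 14.2 CPM with *MALINC1*, 25.4 and 24.0 CPM in DCIS.COM pLOC-empty and 23.4 and 21.5 CPM with *MALINC1*. It was 2.02-fold higher in DCIS.COM with the empty vector (log2 fold change 1.01, standard error 0.071, adjusted p = 2.87e-08). With *MALINC1* the log2 difference was 0.24 (standard error 0.071) for MCF10A, whereas DCIS.COM had -0.14 (standard error 0.071, adjusted p = 0.135).

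The type II receptors diverged between the lines. *ACVR2B* (chromosome 3, 38495381 to 38534633, plus strand) held 4.34 and 3.98 CPM in MCF10A pLOC-empty, 6.16 and 5.44 CPM with *MALINC1*, 15.1 and 16.0 CPM in DCIS.COM pLOC-empty and 14.9 and 15.5 CPM with *MALINC1*. It was 3.69-fold higher in DCIS.COM with the empty vector (log2 fold change 1.88, standard error 0.10, adjusted p = 2.27e-09). The DCIS.COM groups overlapped (log2 fold change -0.034, standard error 0.10, adjusted p = 0.815), and the MCF10A groups were apart by 0.47 (standard error 0.10).

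*ACVR2A* (chromosome 2, 148602086 to 148688395, plus strand) held 19.1 and 18.2 CPM in MCF10A pLOC-empty, 20.3 and 19.0 CPM with *MALINC1*, 14.1 and 15.1 CPM in DCIS.COM pLOC-empty and 15.8 and 17.2 CPM with *MALINC1*. It was lower in DCIS.COM with the empty vector (log2 fold change -0.35, standard error 0.075, adjusted p = 0.000796), a call lost without MCF10A pLOC-empty replicate 1 (adjusted p = 0.0101). With *MALINC1* its log2 difference was 0.073 (standard error 0.075) in MCF10A, where the groups overlapped, while DCIS.COM had 0.18 (standard error 0.075, adjusted p = 0.0743). Per length, *ACVR2A* made up 91.0% ± 0.233 of type II receptor transcripts in MCF10A pLOC-empty and 68.0% ± 0.0393 in DCIS.COM pLOC-empty (SD, n = 2 each). The strand setting of the counting is not given in the sources used here, and *ACVR2A* overlaps *ORC4* on the other strand (32.1 to 40.2 CPM in group means), while *FSTL1*, *INHBA* and *ACVR2B* overlap antisense noncoding or pseudogene annotations that were not analysed here.

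Counted over the members, 2 of 9 rose with *MALINC1* in DCIS.COM (*FSTL1* and *INHBA*), none fell and 7 did not pass. Over all genes 16.4% rose and 16.7% fell in this contrast, and with the 2-fold threshold 1.44% and 3.08% did, to which the members added 0. Between the lines, 3 of the 8 tested members were higher in DCIS.COM (*INHBA*, *ACVR1B* and *ACVR2B*, each over 2-fold), 4 were lower (*FSTL1*, *FSTL3* and *INHBB* over 2-fold, and *ACVR2A*) and *ACVR1* did not pass. Over all genes 37.9% were higher and 36% lower, and 15.6% and 13% were so by over 2-fold. In MCF10A, whose contrast led to the choice of the genes, 6 members had a fitted value above 0 (*FST*, *INHBA* and the 4 receptors) and 3 below (*FSTL1*, *FSTL3* and *INHBB*), with no test. As a description, the median absolute log2 fold change was 0.27 over the 9 members in DCIS.COM, against 0.20 over all genes. Between the lines it was 2.01 over the 8 tested members, without *FST*, against 0.56 over all genes.

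**Figure D3:**
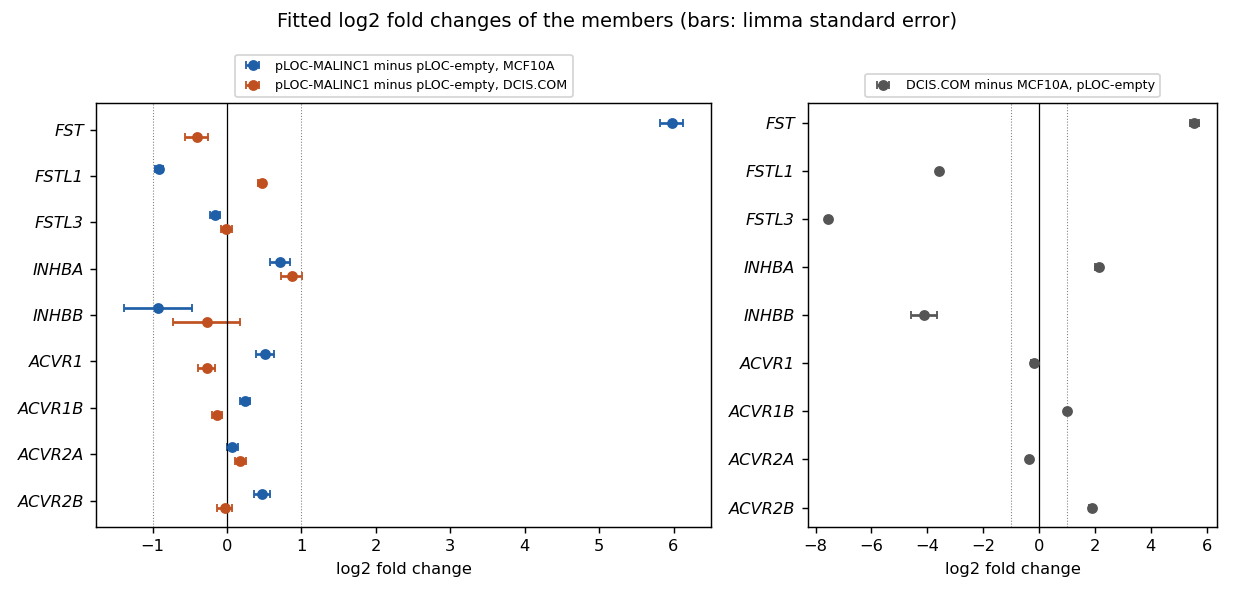
Log2 fold changes of the 9 genes (points) with limma standard errors (bars) for pLOC-*MALINC1* against pLOC-empty in each line (left) and for DCIS.COM against MCF10A with the empty vector (right), with dotted lines at 2-fold. *FST* lies at 5.97 in MCF10A and at -0.41 in DCIS.COM, and the values between the lines run from -7.54 for *FSTL3* to 5.56 for *FST*.

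The genes whose log2 CPM was most like *FST* over the 8 libraries were *SDC1* (r = 0.997), *ACTG1* (0.996), *EXOSC7* (0.993), *SEMA3A* (0.992) and *TFB2M* (0.991). *SDC1*, which encodes a cell-surface proteoglycan, went from 432 CPM in MCF10A pLOC-empty to 999, 935 and 943 CPM in the other groups, and *SEMA3A*, a secreted semaphorin, from 3.89 to 26.8, 30.8 and 24.8 CPM. Like *FST*, they were lowest in MCF10A pLOC-empty, which follows from their choice by correlation. *ACTG1*, *EXOSC7* and *TFB2M* differed less: with *MALINC1* they went from 1172 to 1784, 30.4 to 40.9 and 17.6 to 28.4 CPM in MCF10A. Those most like *INHBA* were *JMJD4* (0.998), *POMK* (0.997), *EPN3* (0.996), *RDH10* (0.996) and *PARM1* (0.995). *RDH10*, a retinol dehydrogenase, held 13.9, 23.0, 47.2 and 76.1 CPM in the order of the groups above. *FST* itself had r = 0.623 with *INHBA*. The 8 points share lines and vectors, so these are descriptions of likeness.

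Other genes of the pathway were taken from a list of 78, of which 56 were in the table. With *MALINC1*, 12 rose and 24 fell in MCF10A (21.5% and 18.1% of all genes did), of which 3 and 8 were DEGs (2.99% and 2.51% of all genes), and 15 rose and 17 fell in DCIS.COM (16.4% and 16.7%). Between the lines 18 were higher and 31 lower in DCIS.COM (37.9% and 36%). The median log2 fold change of the list was -0.21, -0.061 and -0.40 in the 3 comparisons, against 0.0089 in DCIS.COM and 0.031 between the lines over all genes, and 0 to 2 decimals in MCF10A. Genes outside the naming rule are added below where a count is small, after their values were seen. The list itself was drawn up with earlier results of these data known, so its counts are a description.

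Among 12 genes known as SMAD2/3 targets, the branch that activin uses, 8 fell and 1 rose in MCF10A with *MALINC1*. The shares of all genes that did so were 18.1% and 21.5%. *TGFBI*, a matrix protein, fell from 1378 ± 38.9 to 672 ± 2.40 CPM (SD, n = 2; log2 fold change -1.04, adjusted p = 9.93e-09), *PMEPA1*, a feedback inhibitor of TGFB signaling, from 444 ± 5.34 to 318 ± 8.15 CPM (-0.48, adjusted p = 2.33e-06), and *COL1A1*, a collagen, also fell (-1.14, adjusted p = 1.31e-05). The gene that rose was *THBS1*, thrombospondin 1 (1.56, adjusted p = 1.25e-10).

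In DCIS.COM 5 of these targets fell (*TGFBI*, *TAGLN*, *LTBP2*, *THBS1* and *BHLHE40*) and 2 rose (*SKIL* and *KLF10*). Of all genes 16.7% fell and 16.4% rose there. *TGFBI* fell from 44.7 ± 0.432 to 16.9 ± 1.59 CPM (SD, n = 2; log2 fold change -1.41, adjusted p = 7.19e-10) and *TAGLN*, an actin-binding protein, from 4.36 ± 0.295 to 1.73 ± 0.273 CPM (-1.31, adjusted p = 9.07e-07). *PMEPA1* had a log2 fold change of -0.11 there (adjusted p = 0.0654). Between the lines 10 of the 12 were lower in DCIS.COM (36% of all genes) and *CCN2* and *THBS1* were higher (37.9%). *TAGLN* had the lowest value (log2 fold change -5.02, adjusted p = 3.38e-13).

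The 5 genes known as SMAD1/5 targets all fell in MCF10A (18.1% of all genes did), and 4 rose in DCIS.COM (16.4%). These genes were listed with earlier results of these data known, so the counts are a description. *ID1* fell from 181 ± 10.6 to 113 ± 0.0288 CPM in MCF10A and rose from 98.9 ± 0.561 to 255 ± 7.07 CPM in DCIS.COM (SD, n = 2 each). *SMAD6*, an inhibitory SMAD, fell from 5.38 ± 0.0955 to 1.64 ± 0.285 CPM and rose from 5.44 ± 0.811 to 15.1 ± 0.614 CPM. *ID3* and *ATOH8* changed in the same directions. *ATOH8* levels were low, from 3.94 to 0.0378 CPM in MCF10A and from 0.189 to 0.792 CPM in DCIS.COM. *ID2* fell in MCF10A (log2 fold change -2.05, adjusted p = 4.56e-10) but did not pass in DCIS.COM (0.14, adjusted p = 0.116).

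**Figure D4:**
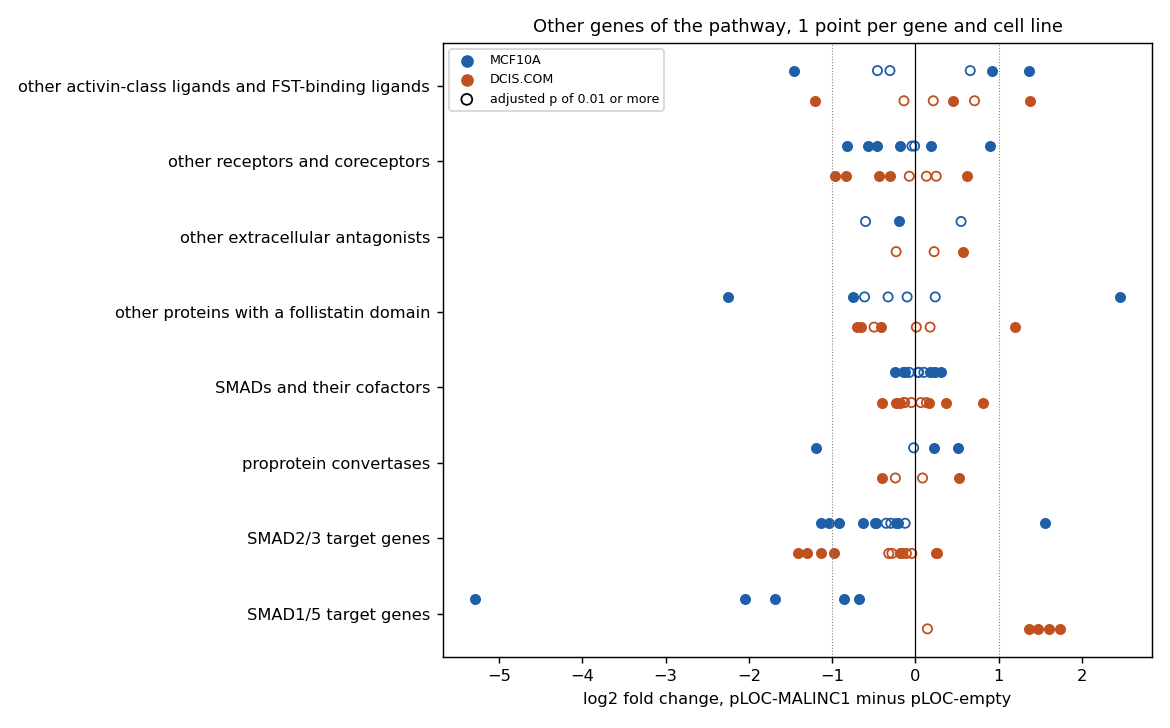
Log2 fold changes with *MALINC1* of the 56 other pathway genes by group of genes, 1 point per gene in MCF10A (blue) and DCIS.COM (orange), filled where the adjusted p was below 0.01, with dotted lines at 2-fold. Points of the 5 SMAD1/5 targets lie at -0.68 or lower in MCF10A and at 0.14 or higher in DCIS.COM.

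Of 6 further ligands of the family, 2 rose and 1 fell in each line. Rises made up 21.5% of all genes for the MCF10A contrast, while falls made up 18.1%. The DCIS.COM contrast had 16.4% of all genes as rises, with falls at 16.7%. *BMP2* fell in MCF10A (34.1 ± 0.863 to 12.4 ± 0.602 CPM, SD, n = 2) and rose in DCIS.COM (5.19 ± 0.448 to 7.13 ± 0.116 CPM). *GDF15*, a stress-induced member of the superfamily, rose in MCF10A (3.71 ± 0.571 to 7.06 ± 0.738 CPM) and fell in DCIS.COM (28.2 ± 1.06 to 12.2 ± 0.682 CPM). *BMP6* rose in both lines (log2 fold changes 1.37 and 1.38, adjusted p = 0.00395 and 0.00446). Its levels were low, from 0.273 ± 0.199 to 0.744 ± 0.0905 CPM in MCF10A and from 1.53 ± 0.142 to 4.09 ± 0.354 CPM in DCIS.COM. *BMP7* was higher in DCIS.COM with the empty vector (0.832 ± 0.237 against 16.3 ± 1.37 CPM, adjusted p = 1.87e-10).

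Among 8 other receptors and coreceptors, 4 fell in each line (18.1% of all genes in MCF10A and 16.7% in DCIS.COM). *ACVR1C* and *TGFBR1* rose in MCF10A. *TGFBR2*, the TGFB type II receptor, fell in both lines (log2 fold change -0.18, adjusted p = 0.00291, in the MCF10A contrast and -0.83, adjusted p = 1.11e-08, in that of DCIS.COM), as did *BAMBI*, and *TGFBR1* and *BMPR1B* fell in DCIS.COM as well. *BMPR2*, the BMP type II receptor, fell in MCF10A (-0.46, adjusted p = 0.000101), with 0.13 in DCIS.COM (adjusted p = 0.123), and was lower in DCIS.COM with the empty vector (-1.24, adjusted p = 2.00e-09). *TGFBR3*, a coreceptor that also binds inhibin, fell in MCF10A (-0.82, adjusted p = 0.000126) and rose in DCIS.COM (0.62, adjusted p = 0.00117).

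Of 7 other genes whose proteins carry a follistatin domain, *SMOC1* rose from 8.48 ± 0.779 to 46.9 ± 0.831 CPM in MCF10A and fell from 195 ± 3.81 to 124 ± 3.96 CPM in DCIS.COM (SD, n = 2 each; adjusted p = 1.69e-11 and 1.72e-06). *SPOCK1* fell in both lines, *SPOCK2* in MCF10A and *TMEFF1* in DCIS.COM, where *SMOC2* rose. *SPARC* was at 0 reads in both MCF10A pLOC-empty libraries and at 194 ± 1.90 CPM in DCIS.COM pLOC-empty, at least 1645-fold higher against a floor of 3 reads per library. Other extracellular antagonists formed a separate group of the list, with 3 genes analysed (*SOSTDC1*, *NOG* and *NBL1*). *SOSTDC1*, a secreted BMP antagonist, was at most at 2 reads in MCF10A pLOC-empty. In DCIS.COM pLOC-empty it was at 10.8 ± 0.723 CPM, at least 91.6-fold higher. *NOG*, another BMP antagonist, was also higher in DCIS.COM (log2 fold change 1.24, adjusted p = 2.17e-05), and *NBL1* fell in MCF10A (-0.20, adjusted p = 0.00168) and rose in DCIS.COM (0.57, adjusted p = 4.27e-07).

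Of 11 SMADs and cofactors, 4 rose in MCF10A (*SMAD3*, *SMAD5*, *SMURF1* and *SMURF2*) and *SMAD2* and *SMAD4* fell. In DCIS.COM *SMAD5*, *SMAD9* and *TGIF1* rose and *SMAD1*, *ZFYVE9* and *SMURF2* fell. Of all genes 21.5% rose and 18.1% fell in MCF10A, and 16.4% and 16.7% in DCIS.COM. *SMAD3* rose in MCF10A (38.8 ± 0.521 to 45.9 ± 1.28 CPM, SD, n = 2; log2 fold change 0.24, adjusted p = 0.000375) and was higher in DCIS.COM with the empty vector (123 ± 0.498 CPM; 1.67, adjusted p = 1.35e-12), as was *SKI* (1.05, adjusted p = 4.39e-08). Of 4 proprotein convertases, enzymes that cleave activin precursors, *FURIN* rose in both lines and *PCSK6* in MCF10A, while *PCSK5* fell in both lines with *MALINC1* (-1.19, adjusted p = 3.45e-07, and -0.41, adjusted p = 0.00249). *PCSK7* was lower in DCIS.COM with the empty vector (-1.02, adjusted p = 2.40e-10).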

How the data were processed

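Total RNA of subconfluent, stably transduced MCF10A and DCIS.COM cells was sequenced as 76 nt paired-end reads (ScriptSeq v2). The authors used Rsubread for alignment to hg19 and featureCounts for counting on the UCSC known genes, and deposited log2 CPM made with edgeR. The strand setting, the filter on low values and tool versions are not given in the sources used here. The log2 values include a prior count; CPM printed here are 2 to the power of the deposited value minus the prior, whose level in the table was 0.0713 CPM. Low values came out as whole reads within a tolerance of 0.1.

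A limma model (version 3.58.1, R 4.3.3) was fitted to the log2 values of all 13842 genes (4 group means, 8 libraries, eBayes with trend, Benjamini-Hochberg over all genes), and a gene passed at an adjusted p below 0.01, or was a DEG with over 2-fold as well. The fit was tested on simulated data. Tables and figures used Python 3.11.15, pandas 2.3.3 and matplotlib 3.10.9. Coordinates are GRCh37 (GENCODE). Promoters are RefSeq GRCh38.p14, for which all 9 members matched.

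The members and lists were chosen with earlier results of these data known. Named are all members, up to 4 DEGs per pathway group with a group mean of 5 CPM or more and the largest log2 fold change, and the 5 genes most like FST and INHBA. A gene of the pathway list is not reported here and was left out of its counts. Alternatives changed the pseudocount, filter, scaling, model and replicate block, and left out each library.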

Additional observations from a re-analysis of the deposited data

Results flagged for a closer look

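By the interaction contrast of the same limma fit, the response to *MALINC1* differed between the lines for 13 of 22 named pathway genes. For 7 of them it did so by over 2-fold. The naming rule used both responses that form this contrast, so the count is a description. The share of all genes past it was not counted. The DCIS.COM response minus the MCF10A response was, on the log2 scale, 1.91 for *BMP2* (standard error 0.13, adjusted p = 1.45e-07), -2.12 for *GDF15* (0.17, adjusted p = 6.45e-07) and -3.11 for *SMOC1* (0.080, adjusted p = 6.03e-11). It was 2.05 for *ID1* (0.058, adjusted p = 1.02e-10), 2.19 for *ID2* (0.10, adjusted p = 4.32e-09), 2.47 for *ID3* (0.077, adjusted p = 2.09e-10) and 3.16 for *SMAD6* (0.21, adjusted p = 1.33e-07). For each of these 7 genes every *MALINC1* library lay on opposite sides of its controls in the 2 lines. The other 6 differed by less: *BMPR2* by 0.59 (adjusted p = 0.000236), *TGFBR2* by -0.65 (adjusted p = 1.94e-06), *PCSK5* by 0.79 (adjusted p = 0.000242), *PMEPA1* by 0.37 (adjusted p = 0.000378), *TGFBI* by -0.37 (adjusted p = 0.00107) and *COL1A1* by 0.82 (adjusted p = 0.00261).

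As a description, every *MALINC1* library of *FST*, *FSTL1*, *ACVR1* and *ACVR1B* lay on opposite sides of its controls in the 2 lines. The difference was not tested, since the MCF10A response led to the choice of the set. How many of all genes split in this way was not counted. Within DCIS.COM only *FSTL1* of these passed, whereas *FST*, *ACVR1* and *ACVR1B* did not (adjusted p = 0.0496, 0.0735 and 0.135 in limma). The DCIS.COM response minus the MCF10A response was -6.38 for *FST* (standard error 0.22), 1.38 for *FSTL1* (0.070), -0.78 for *ACVR1* (0.16) and -0.38 for *ACVR1B* (0.10). Of all genes, 97.5%, 8.55% and 20.0% had a lower value than *FSTL1*, *ACVR1* and *ACVR1B*.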

How the results depend on the processing

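Of the values of members under the alternatives, 356 kept their direction and side of the threshold or moved by less than the spread. The others were 11 that moved, 7 that changed sign, 3 that passed where they had not and 1 that no longer passed. Named pathway genes were followed only in comparisons where they passed by over 2-fold in the main fit, so smaller differences printed above were not followed. All 567 of these values kept their direction and stayed below the adjusted p threshold. Under some alternatives they fell below 2-fold: *PCSK7* (log2 fold change -0.91) and *NOG* (0.96) between the lines, and *TAGLN* (-0.98) with *MALINC1* in DCIS.COM. The pathway count in MCF10A went from 36 to 21 with only the 2 groups, and that in DCIS.COM from 32 to between 21 and 25 when a library was left out (21 without DCIS.COM pLOC-*MALINC1* replicate 2). The change of the *FST* to *INHBA* log2 ratio in MCF10A was 5.27, and 4.36 and 3.79 with pseudocounts of 0.5 and 1 CPM and 4.72 after quantile normalization. In DCIS.COM, *FSTL3* (-0.011) was 0.059 after quantile normalization and 0.022 with totals without *RN7SL1* and *RN7SL2*, and -0.13 to 0.11 when a library was left out. *INHBB* (-0.28) ran from -1.23 to 0.68 when a library was left out, and *ACVR2B* (-0.034) was 0.00058 with those totals and -0.079 to 0.011 when a library was left out. The cause was not tested. Those totals put the median of all genes between the lines at 0.14 on the log2 scale. Same-numbered replicates share only a number: correlations of their deviations were -0.139 in MCF10A and 0.121 in DCIS.COM, and with a replicate block the members past the threshold numbered 2 in DCIS.COM and 7 between the lines, and the pathway genes 36, 32 and 48 in MCF10A, DCIS.COM and between the lines. Few reads limit *FST* in MCF10A pLOC-empty and *INHBB* in DCIS.COM.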
